A study of Homo sapiens with 16 samples.

Results

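Most of the genes described here encode proteins of the primary (azurophil) granules of myeloid cells. MS4A3 accompanies them in granulocyte and monocyte progenitors, and SRGN encodes a protein that binds their cargo. RNASE2 and RNASE3 encode ribonucleases known from eosinophil granules. All probe sets whose platform symbol was MPO, ELANE, PRTN3, AZU1, CTSG, RNASE2, RNASE3, MS4A3, LYZ or SRGN were taken, whatever their values. Of these 10 genes, 9 had a probe set, and CTSG had 2, so that 10 of 12626 probe sets on the array were members. RNASE3 had no probe set carrying its symbol alone and is given no level. All 10 probe sets exceeded the limit on low values and were tested, although MPO did so on 2 arrays only.

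The samples came from U937, a human myeloid leukaemia line with monocytic features, in which a tetracycline promoter drives AML1-ETO. This fusion, found in leukaemia with t(8;21), joins the DNA-binding domain of RUNX1 to RUNX1T1 (ETO), which recruits corepressors. RNA was hybridised to Affymetrix U95Av2 arrays, 2 per group, from cells induced for 12, 24, 48 and 72 h and from control cells at 0, 24, 48 and 72 h, all of which carry the same construct. Whether the control cells were grown with tetracycline is not stated in the labels. Control cells at 12 h were not analysed here, so the induced cells at 12 h were set against control cells at 0 h. The labels do not state whether the replicates were separate cultures, so p-values measure only the spread between these arrays, which may be technical. In such bulk samples, fewer cells of a type and less RNA per cell cannot be told apart.

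Primary granules are the first granules to appear during neutrophil development, at the promyelocyte stage, when the genes for their contents are transcribed at a high rate and are then shut off. They store myeloperoxidase, the serine proteases neutrophil elastase, proteinase 3 and cathepsin G, the protease relative azurocidin, and lysozyme, packed on the proteoglycan serglycin. The promoters of several of these genes are known to be bound by RUNX1 with its partner CBFB, by PU.1 (SPI1), by C/EBP factors and by MYB; in mouse cells, sites of this kind were described for Mpo and Elane. Monocytic lines such as U937 are arrested at a stage at which much of this programme is still expressed.

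Promoter windows from RefSeq (GRCh38.p14), running 250 bases before to 50 bases after the start of the gene, were found for 6 of the 10 genes: PRTN3, AZU1, CTSG, RNASE2, RNASE3 and MS4A3. The 4 below belong to the members whose intensity at 72 h was the smallest share of the control level. Each is written 5′ to 3′ along the gene. Capitals mark the core of the RUNX site, TGTGG, or the PU.1-type ETS site GAGGAA, on either strand (CCACA and TTCCTC on the other). The windows lie at chr11:60056415-60056714 (plus strand) for MS4A3, chr14:24576201-24576500 (minus strand) for CTSG, chr19:840749-841048 (plus strand) for PRTN3 and chr19:827587-827886 (plus strand) for AZU1.
MS4A3: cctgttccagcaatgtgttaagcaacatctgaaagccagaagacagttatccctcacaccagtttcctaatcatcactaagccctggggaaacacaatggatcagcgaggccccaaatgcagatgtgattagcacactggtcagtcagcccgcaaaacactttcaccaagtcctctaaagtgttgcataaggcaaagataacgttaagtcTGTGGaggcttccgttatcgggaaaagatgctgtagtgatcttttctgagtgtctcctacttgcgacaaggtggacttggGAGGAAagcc
CTSG: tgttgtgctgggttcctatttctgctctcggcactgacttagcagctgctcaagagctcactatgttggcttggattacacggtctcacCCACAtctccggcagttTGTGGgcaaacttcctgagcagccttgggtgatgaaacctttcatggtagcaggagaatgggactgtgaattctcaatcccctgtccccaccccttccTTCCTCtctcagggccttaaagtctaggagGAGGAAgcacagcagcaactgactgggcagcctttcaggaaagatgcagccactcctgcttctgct
PRTN3: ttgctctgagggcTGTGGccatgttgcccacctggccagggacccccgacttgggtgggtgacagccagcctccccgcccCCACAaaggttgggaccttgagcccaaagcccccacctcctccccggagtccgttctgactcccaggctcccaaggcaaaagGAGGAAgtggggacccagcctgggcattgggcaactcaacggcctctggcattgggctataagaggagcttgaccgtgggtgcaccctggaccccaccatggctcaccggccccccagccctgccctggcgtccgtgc
AZU1: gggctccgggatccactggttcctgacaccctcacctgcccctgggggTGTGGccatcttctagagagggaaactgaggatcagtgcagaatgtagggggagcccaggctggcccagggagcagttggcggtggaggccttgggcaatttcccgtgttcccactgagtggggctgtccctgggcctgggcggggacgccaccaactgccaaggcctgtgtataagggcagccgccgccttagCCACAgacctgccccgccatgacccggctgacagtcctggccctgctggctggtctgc

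The RUNX core TGTGG lay in all 6 windows, but 51.4% of 35116 RefSeq promoters of the same length hold it. The longer letters TGTGGT lay in 0 of 6 windows and in 13.1% of all promoters. GAGGAA lay in 3 of 6, in PRTN3 at base -88 from the start, in CTSG at -46 and -16 and in MS4A3 at 41, against 27.9% of all promoters. The C/EBP-type letters TTGCNNAA lay in 5 of 6, all but CTSG, against 10.5% of all promoters. The match was TTGCACAA in both RNASE2 and RNASE3, and TTGGGCAA (on the other strand) in both PRTN3 and AZU1. These are neighbouring, related genes, so the 6 windows are not independent and the counts measure no enrichment. The MYB-type letters AACNG lay in 6 of 6 against 77.2%. All searches used both strands; MYB-type letters are short, and none of these motifs contains another except TGTGG within TGTGGT. A match describes the letters in this window and is no evidence of binding.

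Induction of the fusion was checked by RUNX1T1, the ETO part of the fusion. Its probe set with detectable signal read 8650 and 3974 in cells induced for 48 h and 10603 and 8355 in cells induced for 72 h, against at most 91.4 on all 8 control arrays. After 24 h the paired arrays read 1592 (replicate 1) and -47.5 (replicate 2), and after 12 h both induced arrays stayed below the floor of 135.6 that was set before taking log2. The 24 h arrays therefore differ in how much of the transgene they show. At 24 h the array with the RUNX1T1 signal was the lower of the pair for 6 of the 9 members (MPO, ELANE, PRTN3, AZU1, CTSG and MS4A3). It was the higher for 3 (RNASE2, LYZ and SRGN). Its median intensity was also the lower, 285.4 against 325.5. The share of all probe sets lower on it was not counted, and a link of the members' order to the transgene was not tested. Median intensities of the arrays lay between 220.3 and 337.5, and r between paired replicates was 0.966 to 0.991. Among 6 measured monocyte markers, CSF1R and ITGAM lay below the floor on all 16 arrays, ANPEP on 14, CD68 on 12 and CD14 on 9, while CD4 read 2086 to 10132 and was the 1 of 4 tested that was called (higher in induced cells). The summed level of the 6 markers was 2988 to 12047 on induced arrays and 2900 to 5482 on control arrays, and their part in the results below was not tested. Summed lymphoid markers read 2001 to 3462 on induced and 1506 to 2990 on control arrays, with 0 of 4 tested genes called. Summed erythroid and megakaryocyte markers read 1079 to 2455 on induced and 1161 to 2117 on control arrays, with 0 of 2 called. Summed epithelial and fibroblast markers read 4752 to 8868 on induced and 5592 to 8042 on control arrays; of 3 tested, 1 was called at 1 time, COL1A1 (type I collagen), which was lower at 48 h (391 and 740 in induced, 2376 and 2336 in control cells; log2 -2.13, limma adjusted p = 0.0320).

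The comparison of induced with control cells asks how the levels of these genes differed with induction over time. No cells lacking the construct were among the samples. Effects of the fusion and of the inducing treatment therefore cannot be told apart. Averaged over 24, 48 and 72 h, 7 of the 9 measured genes fell and 0 rose, while LYZ and MPO did not pass the test. This count is read against 13.4% of all 7824 tested probe sets that were lower in induced cells (limma, Benjamini-Hochberg adjusted p under 0.05 over all probe sets). The median log2 difference of the members was -0.73, and that of all tested probe sets was 0.10. By time, the members' medians were -0.08 at 24 h, -0.78 at 48 h and -1.34 at 72 h, beside 0.04, 0.09 and 0.18 for all tested probe sets. Centring each array on its median moved the 72 h median of all probe sets to -0.00 and left 7 members lower.

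**Figure D1:**
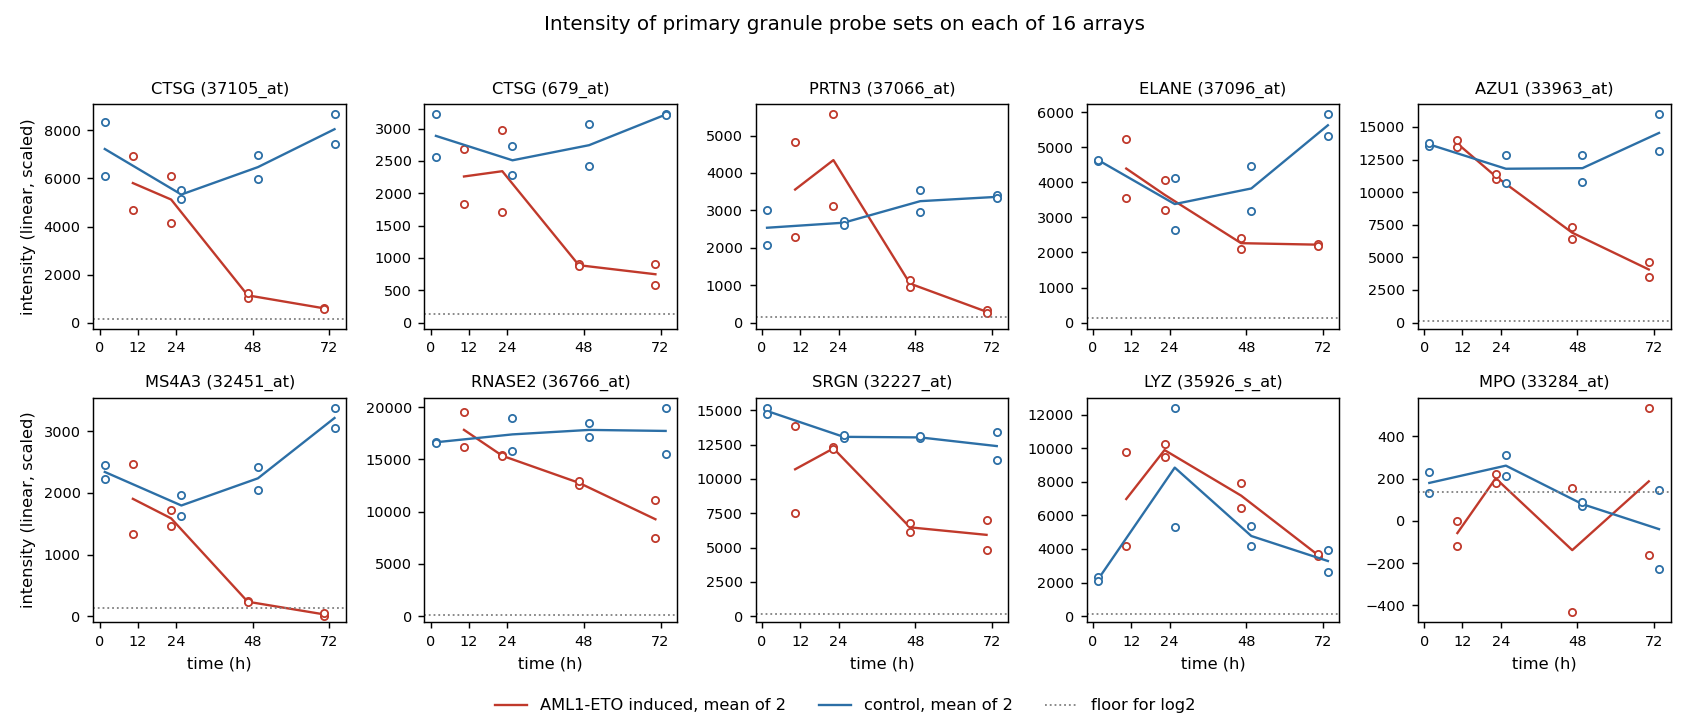
Intensity (linear, scaled by the authors) of each of the 10 member probe sets against time in hours; points are single arrays, lines join the means of 2 arrays, induced cells in red and control cells in blue, drawn slightly left and right of each time. Induced and control arrays lie close together at 24 h for most members. At 48 and 72 h the induced arrays lie below the control arrays for all but LYZ and MPO. Those of LYZ lie above the control arrays at 48 h. MS4A3 ends at 7.46 and 47.1, below the dotted floor of 135.6.

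Cathepsin G is a chymotrypsin-like serine protease of the primary granule, and CTSG lost most of its signal. On the brighter probe set (37105_at) induced cells read 1037 and 1228 at 48 h, against 5981 and 6968 in control cells. At 72 h they read 614 and 565, against 7436 and 8669 in control cells. The groups did not overlap at either time, and the induced level was 17.5% of the control level at 48 h and 7.33% at 72 h. The fall was 5.72-fold at 48 h (log2 -2.52, SE 0.23, limma adjusted p = 1.52e-05) and 13.6-fold at 72 h (log2 -3.77, SE 0.23, limma adjusted p = 2.42e-07). At 24 h the values were 4132 and 6114 in induced and 5507 and 5159 in control cells, with the control arrays inside the induced range. Cells induced for 12 h read 6931 and 4688, against 6107 and 8350 in control cells at 0 h, which also overlapped.

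The second CTSG probe set (679_at) fell as well, but by less. Induced cells read 900 and 874 at 48 h, against 3064 and 2422 in control cells, and 587 and 907 at 72 h, against 3223 and 3209 in control cells. The fall was 3.07-fold at 48 h (limma adjusted p = 0.00197) and 4.41-fold at 72 h (log2 -2.14, SE 0.30, limma adjusted p = 0.000113). The 95% intervals of the 72 h difference, -4.27 to -3.26 on the first probe set and -2.78 to -1.50 on the second, do not overlap, so the size of the fall depends on the probe set while its direction does not. The correlation of both probe sets over the 16 arrays was 0.963 on the log2 scale. At 24 h the second probe set read 1707 and 2975 in induced and 2287 and 2732 in control cells, and for 12 h against 0 h it read 2689 and 1830 in induced and 2554 and 3220 in control cells.

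Proteinase 3, an elastase-like serine protease and the main autoantigen of granulomatosis with polyangiitis, is encoded by PRTN3. It read 946 and 1138 in cells induced for 48 h, against 2947 and 3546 in control cells, and 334 and 243 at 72 h, against 3400 and 3323 in control cells. Both induced arrays lay below both control arrays at these times. PRTN3 fell 3.12-fold at 48 h (log2 -1.64, SE 0.35, limma adjusted p = 0.00491) and 11.8-fold at 72 h (log2 -3.56, SE 0.35, limma adjusted p = 6.31e-06), to 8.58% of the control level. At 24 h it was the only member with both induced arrays, 3116 and 5575, above both control arrays, 2727 and 2614. That difference did not pass the test (log2 0.64, 95% interval -0.10 to 1.39, limma adjusted p = 0.991). At 12 h of induction the arrays read 2285 and 4830, against 2998 and 2073 in control cells at 0 h, and the pairs overlapped.

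Neutrophil elastase, the protease whose gene is mutated in cyclic and severe congenital neutropenia, is encoded by ELANE. ELANE read 2256 and 2191 at 72 h, against 5321 and 5945 in control cells, with no overlap. This was a 2.53-fold fall (log2 -1.34, SE 0.25, limma adjusted p = 0.00104), to 39.5% of the control level. At 48 h it read 2424 and 2109, against 3179 and 4478 in control cells, and the difference missed the threshold (log2 -0.74, 95% interval -1.27 to -0.21, limma adjusted p = 0.0518). Between 48 and 72 h the induced arrays stayed between 2109 and 2424, while the control arrays read 3179 and 4478 at 48 h and 5321 and 5945 at 72 h. At 24 h the arrays read 3225 and 4074 in induced and 2633 and 4133 in control cells, and for 12 h against 0 h they read 3545 and 5249 in induced and 4621 and 4655 in control cells; neither pair was separated.

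Azurocidin (AZU1, also called CAP37 or heparin-binding protein) has the fold of these proteases but lacks catalytic activity, and it acts on bacteria and on the vessel wall. AZU1 read 6427 and 7353 at 48 h in induced cells, against 10809 and 12873 in control cells, and 3460 and 4676 at 72 h, against 15958 and 13129 in control cells. The groups were apart at both times. The fall was 1.72-fold at 48 h (log2 -0.78, SE 0.17, limma adjusted p = 0.00551) and 3.60-fold at 72 h (log2 -1.85, SE 0.17, limma adjusted p = 3.76e-06). The 48 h call was lost without control replicate 2 (limma adjusted p = 0.0658) and without induced replicate 1 (limma adjusted p = 0.0551), and kept without either of the other arrays. At 24 h AZU1 read 11004 and 11414 in induced and 12855 and 10736 in control cells, and for 12 h against 0 h it read 13443 and 14011 in induced and 13558 and 13765 in control cells.

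The genes AZU1, PRTN3 and ELANE lie next to each other in this order on chromosome 19, followed by CFD, the gene of complement factor D, itself a serine protease. The 3 granule genes were all lower at 72 h but by different amounts, with fitted log2 differences of -1.85, -3.56 and -1.34. CFD, at 373 to 1067 over all arrays, showed no change that passed the test (log2 -0.08 at 72 h, SE 0.41, limma adjusted p = 0.918). CTSG lies on chromosome 14 between CMA1 (mast cell chymase) and GZMH (granzyme H), both proteases of other cells. CMA1 read 283 to 1114 and GZMH 20.3 to 765 over all arrays, and neither passed the test at 72 h (log2 0.37 and -1.83, limma adjusted p = 0.585 and 0.160). Of 23 listed neighbours of the members, 14 had a probe set and 7 were tested. In the average effect 1 of them was lower, SUPV3L1 (log2 -0.43, limma adjusted p = 0.0256), against 13.4% of all probe sets. Against 18.5%, 2 were higher, ARID3A (log2 1.11, limma adjusted p = 5.33e-06) and LPO (log2 1.20, limma adjusted p = 0.0443). LPO was not called at 24, 48 or 72 h alone (limma adjusted p of at least 0.364). Its control arrays read 101 to 1051, with 895 and 887 at 0 h, and its induced arrays of 24 to 72 h read 431 to 1094. LPO encodes lactoperoxidase, and ARID3A, a DNA-binding factor of B cells, lies on chromosome 19 further from the cluster.

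MS4A3 (HTm4) is a membrane protein of granulocyte and monocyte progenitors with a described role in the cell cycle, and its signal was below the floor in cells induced for 72 h. It read 244 and 223 in cells induced for 48 h, against 2428 and 2046 in control cells, which is 10.4% of the control level. At 72 h it read 7.46 and 47.1, both under the floor, against 3377 and 3056 in control cells. MS4A3 fell 9.55-fold at 48 h (log2 -3.26, SE 0.29, limma adjusted p = 1.15e-05) and at least 23.7-fold at 72 h (limma adjusted p = 2.61e-07), a lower bound because the induced arrays were set to the floor. At 24 h it still read 1459 and 1715 in induced cells, against 1964 and 1628 in control cells, and at 12 h 2468 and 1339, against 2454 and 2227 in control cells at 0 h. Neither of these earlier pairs was separated.

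RNASE2, the eosinophil-derived neurotoxin, is a ribonuclease of eosinophil granules that monocytic and neutrophilic cells also make. Its induced arrays read 15406 and 15299 at 24 h, 12568 and 12963 at 48 h and 7474 and 11072 at 72 h. The control arrays of the same times read 18944 and 15853, 18519 and 17135, and 19918 and 15540. Both induced arrays lay below both control arrays at all 3 times, by a margin that was narrow at 24 h. The difference was called at 72 h, when RNASE2 fell 1.93-fold (log2 -0.95, SE 0.18, limma adjusted p = 0.00140), and not at 48 h (log2 -0.48, 95% interval -0.88 to -0.09, limma adjusted p = 0.0869). At 12 h of induction it read 19514 and 16148, against 16699 and 16591 in control cells at 0 h. RNASE3, the eosinophil cationic protein, is its neighbour and close relative on chromosome 14, and whether its RNA adds to the RNASE2 signal was not tested. The windows of both genes hold the same C/EBP-type match, TTGCACAA, at base -145 in RNASE2 and -94 in RNASE3.

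SRGN encodes serglycin, the core protein of the proteoglycan that holds basic granule proteins; in mice it is needed to store elastase. SRGN read 6815 and 6127 at 48 h in induced cells, against 12952 and 13103 in control cells, and 7020 and 4827 at 72 h, against 13405 and 11387 in control cells. The fall was 2.02-fold at 48 h (log2 -1.01, SE 0.23, limma adjusted p = 0.00859) and 2.12-fold at 72 h (log2 -1.09, SE 0.23, limma adjusted p = 0.00317). The groups were separated at both times, and the induced level was 49.7% of control at 48 h and 47.8% at 72 h. The 48 h call was lost without control replicate 2 (limma adjusted p = 0.0518) or without induced replicate 2 (limma adjusted p = 0.0664). At 24 h the arrays read 12294 and 12158 in induced and 12970 and 13169 in control cells, apart but by little. After 12 h the induced arrays read 13889 and 7519, against 15168 and 14739 in control cells at 0 h, and this difference was not called (limma adjusted p = 0.206).

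Lysozyme, which cleaves bacterial cell walls and is made by neutrophils, monocytes and macrophages, was not called in any comparison of induced with control cells of the same time. LYZ read 6427 and 7927 at 48 h in induced cells, against 5357 and 4184 in control cells, and 3602 and 3702 at 72 h, against 3923 and 2640 in control cells. The induced arrays lay above the control arrays at 48 h and between them at 72 h. Neither difference passed the test (log2 0.59, 95% interval -0.24 to 1.43, limma adjusted p = 0.340 at 48 h; log2 0.18, 95% interval -0.65 to 1.02, limma adjusted p = 0.761 at 72 h). At 24 h LYZ read 10277 and 9505 in induced cells, within the control arrays of 12394 and 5298. In induced and control cells alike the mean was highest at 24 h and lower at 48 and 72 h, and control cells at 0 h read 2302 and 2092. Its single probe set is of the s type, which can detect transcripts of more than 1 gene.

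Myeloperoxidase, the haem enzyme that makes hypochlorous acid and the classical marker of primary granules, had almost no measurable signal. MPO exceeded the limit on low values (292.7, the median of all values) on 2 arrays only, 1 control array of 24 h at 309 and 1 induced array of 72 h at 534, and lay under the floor on 8. In induced cells it read 181 and 222 at 24 h, 155 and -432 at 48 h and -160 and 534 at 72 h. Control cells of the same times read 309 and 213, 70.9 and 87.4, and 148 and -226. Pairs lay far apart in induced cells at 48 h and in both groups at 72 h, and no comparison passed the test (72 h log2 0.93, SE 0.53, limma adjusted p = 0.217). Without induced replicate 1 of 72 h the remaining array of 534 gave a log2 difference of 1.92 (limma adjusted p = 0.00778), which then rests on 1 array. At 12 h of induction MPO read 1.58 and -117, against 229 and 130 in control cells at 0 h. A change in MPO was thus not detectable at this signal.

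Most members were close to their controls at 24 h and apart from 48 h on. For RUNX1T1 the induced arrays of 24 h read 1592 (replicate 1) and -47.5 (replicate 2), the second below the floor. Whether the members' timing follows that of the transgene was not tested. At 24 h 0 members were called, and 0 had an unadjusted p under 0.05, beside 0% of all probe sets called (397 of 7824 at an unadjusted p under 0.05, smallest limma adjusted p = 0.0515). At 48 h 5 members were called lower, CTSG, PRTN3, AZU1, MS4A3 and SRGN, against 8.68% of all probe sets. At 72 h 7 were called lower, with ELANE and RNASE2 added, against 13.9% of all probe sets. Both induced arrays lay below both control arrays for 2 members at 24 h (RNASE2 and SRGN), 7 at 48 h and 7 at 72 h, beside 13.7%, 26.2% and 26.7% of all probe sets.

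**Figure D2:**
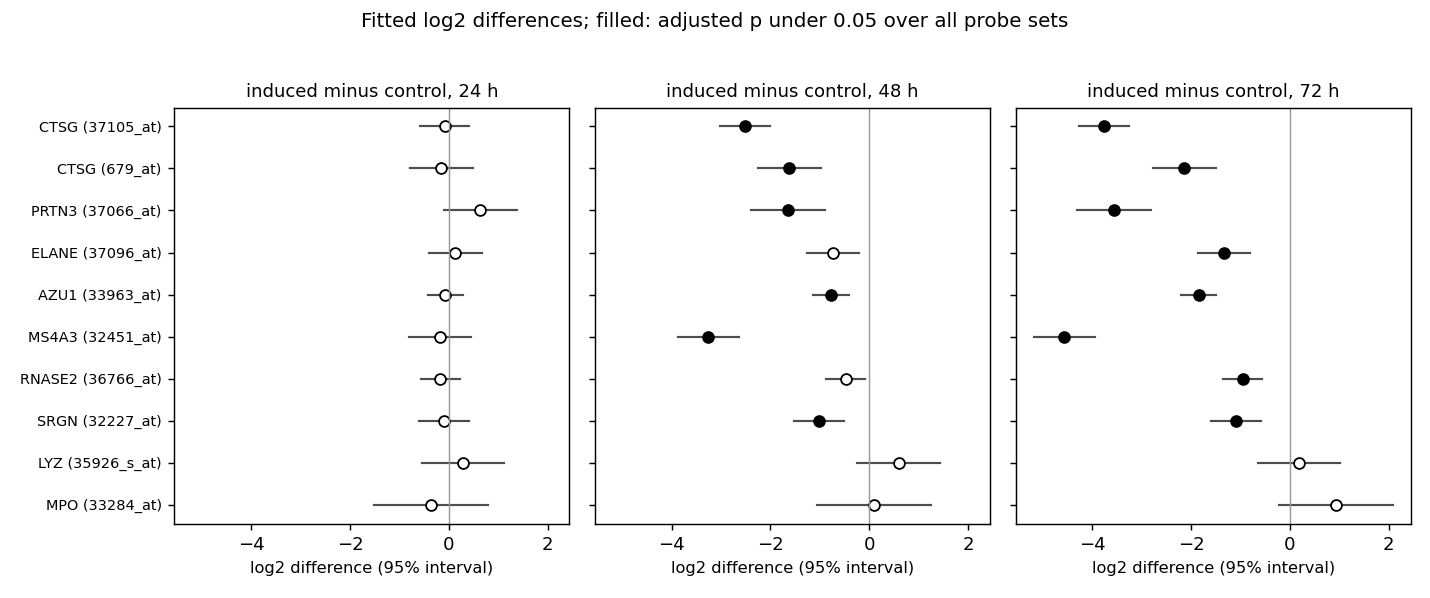
Fitted log2 difference, induced minus control, with its 95% interval for each member probe set at 24, 48 and 72 h; filled points have a limma adjusted p under 0.05 over all probe sets. At 24 h all 10 intervals include 0, and at 72 h MS4A3, CTSG and PRTN3 lie at -4.57 (limited by the floor), -3.77 and -3.56 while the LYZ and MPO intervals include 0.

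Whether the effect itself changed with time was tested with an F test of the 24, 48 and 72 h differences. The 24 h difference rests on induced arrays of which only replicate 1 showed RUNX1T1 signal. It called 5 of the 9 members, CTSG, MS4A3, PRTN3, AZU1 and ELANE, against 10.9% of all probe sets. SRGN (limma adjusted p = 0.112) and RNASE2 (limma adjusted p = 0.156) were not called, nor were LYZ and MPO. The count was 4 without the filter on low values and without the mean-variance trend, 6 with quantile normalization, and 4 to 5 when each array was left out in turn. The 48 h effect was lower than the 24 h effect for 3 members, MS4A3 (log2 -3.08, limma adjusted p = 0.00150), CTSG (log2 -2.43, limma adjusted p = 0.00181) and PRTN3 (log2 -2.28, limma adjusted p = 0.0176), against 3.08% of all probe sets.

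A further step from 48 to 72 h did not pass the test for any member, against 0.486% of all probe sets called in either direction. At an unadjusted p under 0.05 (limma) it was found for 4 members, beside 765 of all 7824 tested probe sets. The log2 differences between the 72 h and 48 h effects were -1.92 for PRTN3 (limma adjusted p = 0.117), -1.31 for MS4A3, which is limited by the floor (limma adjusted p = 0.223), -1.25 for CTSG (limma adjusted p = 0.126) and -1.07 for AZU1 (limma adjusted p = 0.0649). SRGN differed least, at -0.07 (95% interval -0.79 to 0.64), so that its level relative to control was nearly the same at 48 and 72 h.

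Uninduced cells were compared over time to see how steady these genes were without induction. No member was called between later control cells and control cells at 0 h, beside 0.498% of all probe sets at 24 h, 0.0128% at 48 h and 0.0383% at 72 h (limma). At an unadjusted p under 0.05 (limma), 1 member differed at 24 h, 1 at 48 h and 0 at 72 h, LYZ in both cases. Of all 7824 tested probe sets, 1045 did so at 24 h, 700 at 48 h and 581 at 72 h. LYZ read 12394 and 5298 in control cells at 24 h, against 2302 and 2092 at 0 h (log2 1.88, SE 0.39, limma adjusted p = 0.0537). At 48 h it read 5357 and 4184 (log2 1.11, limma adjusted p = 0.434) and at 72 h 3923 and 2640 (log2 0.55, limma adjusted p = 0.789). The 24 h difference crossed the threshold in 4 of 13 alternatives, among them the fit without control replicate 2 of 24 h, which read 5298 (limma adjusted p = 0.0254). For the other 8 members the differences of control cells at 72 h from those at 0 h ran from log2 -0.32 (MPO) to 0.46 (MS4A3).

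Cells induced for 12 h were set against control cells at 0 h, a comparison in which induction and time in culture cannot be told apart. Of the members, 1 was called, LYZ, against 3.28% of all probe sets in either direction. LYZ read 9772 and 4176 after 12 h, against 2302 and 2092 at 0 h (log2 1.54, SE 0.39, 2.91-fold, limma adjusted p = 0.0487). This call was lost in 9 of 13 alternatives, and without replicate 1 of the induced pair the log2 difference was 0.93 (limma adjusted p = 0.268). Uninduced cells at 24 h, set against the same 0 h arrays, read 12394 and 5298. The proteases and MS4A3 had log2 differences between -0.37 (the second CTSG probe set) and 0.41 (PRTN3) at 12 h, with no call.

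The members that fell were positively correlated with each other over the 16 arrays. Pearson's r of log2 intensity was 0.989 for CTSG and MS4A3, 0.953 for AZU1 and CTSG, 0.935 for AZU1 and RNASE2, and 0.755 for ELANE and PRTN3. The lowest values among them were 0.598 for ELANE and RNASE2 and 0.640 for ELANE and SRGN. LYZ had r between -0.45 and 0.17 with the other members, and MPO between -0.34 and 0.13. These values describe arrays that share induction state and time, and carry no test. The probe sets most like the members' median profile over the 16 arrays were those of NHERF1 (r = 0.984), ATIC (r = 0.982), GPI (r = 0.978), XK (r = 0.978), LYL1 (r = 0.976) and EIF4EBP1 (r = 0.976). Their 72 h log2 differences ran from -3.13 (LYL1) to -1.90 (GPI).

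Transcription factors known to act on granule gene promoters were also measured. Of 9 tested, 6 were lower and 0 higher in the average effect, at 48 h and at 72 h. Among all probe sets, 13.4% were lower in the average effect, 8.68% at 48 h and 13.9% at 72 h. The median log2 difference of the 9 was -1.62 at 72 h, beside 0.18 for all probe sets. This list was chosen with earlier results of these data known, and RUNX1 itself was not on it. SPI1 read 231 and 243 at 72 h, against 2496 and 2596 in control cells (log2 -3.42, limma adjusted p = 1.02e-05). CEBPA read 2418 and 1731 at 72 h, against 12841 and 12491 in control cells (log2 -2.63, limma adjusted p = 2.26e-06). CEBPB, MYB and CBFB, the last being the partner of RUNX1, fell by 1.72, 1.62 and 1.25 on the log2 scale at 72 h, all with limma adjusted p of at most 0.000241. IRF8, a factor of the monocyte lineage, read 231 and 103 at 72 h, the second under the floor, against 8819 and 9354 in control cells (at least 51.4-fold lower, limma adjusted p = 4.93e-07). GFI1, a repressor needed for neutrophil development, showed no called difference (log2 0.22, limma adjusted p = 0.340), nor did CEBPD or CEBPE, the factor of late granules. At 24 h 0 of the 9 were called.

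Genes that activate, pack or inhibit the proteases went both ways. Of 13 tested, 3 were lower and 3 higher both in the average effect and at 72 h. Their median at 72 h was 0.00, beside 0.18 for all probe sets. Among all probe sets, 13.4% were lower and 18.5% higher in the average effect, and 13.9% were lower and 16.1% higher at 72 h. Cathepsin C (CTSC), which trims the serine proteases to their active form, fell by 0.96 on the log2 scale at 48 h (limma adjusted p = 0.000925) and by 0.48 at 72 h (limma adjusted p = 0.0328). LYST, the granule-size gene of Chediak-Higashi syndrome, fell by 1.44 at 72 h (limma adjusted p = 0.000428), and HAX1, a mitochondrial protein mutated in congenital neutropenia, by 0.79 (limma adjusted p = 0.00518). VPS45, a vesicle-sorting protein whose loss also causes neutropenia, rose (log2 2.03, limma adjusted p = 0.00614). The protease inhibitors SERPINA3 (antichymotrypsin, which inhibits cathepsin G) and SERPINA1 (antitrypsin, which inhibits elastase) had fitted 72 h differences of 2.53 and 2.40 (limma adjusted p = 0.0243 and 0.00122). Both had many low readings, under the floor on 6 and 10 of 16 arrays. SERPINB1, the intracellular inhibitor of all 3 proteases, was not called (log2 -0.34, limma adjusted p = 0.177).

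Contents of primary granules that are shared with lysosomes were not called at 72 h. Of 4 tested in a list of 10 such genes and defensins, namely CD63, CTSD, GUSB and MAN2B1, the median at 72 h was 0.10, with 0 called. CTSD (cathepsin D) was lower in the average effect (log2 -0.31, limma adjusted p = 0.0150), and GUSB (beta-glucuronidase) was higher at 48 h (log2 0.70, limma adjusted p = 0.0237). Among 10 tested genes that fold myeloperoxidase or make its haem, the median at 72 h was 0.02. At that time 1 was lower, the chaperone CANX (log2 -0.64, limma adjusted p = 0.000719). The 1 called higher was ALAS1, the first enzyme of haem synthesis (log2 0.60, limma adjusted p = 0.0305). At 48 h 0 were higher and 2 lower, CANX (log2 -0.34, limma adjusted p = 0.0463) and the chaperone HSPA5 (log2 -0.73, limma adjusted p = 0.0341). The later secondary and tertiary granules could hardly be measured: of 13 genes with a probe set, 2 were tested (CAMP and HP), and 0 were called. Of 5 tested granule genes of lymphocytes, mast cells and eosinophils, 1 was lower at 72 h, NKG7 (fitted log2 -2.01, limma adjusted p = 0.0359), which lay under the floor on 10 arrays.

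**Figure D3:**
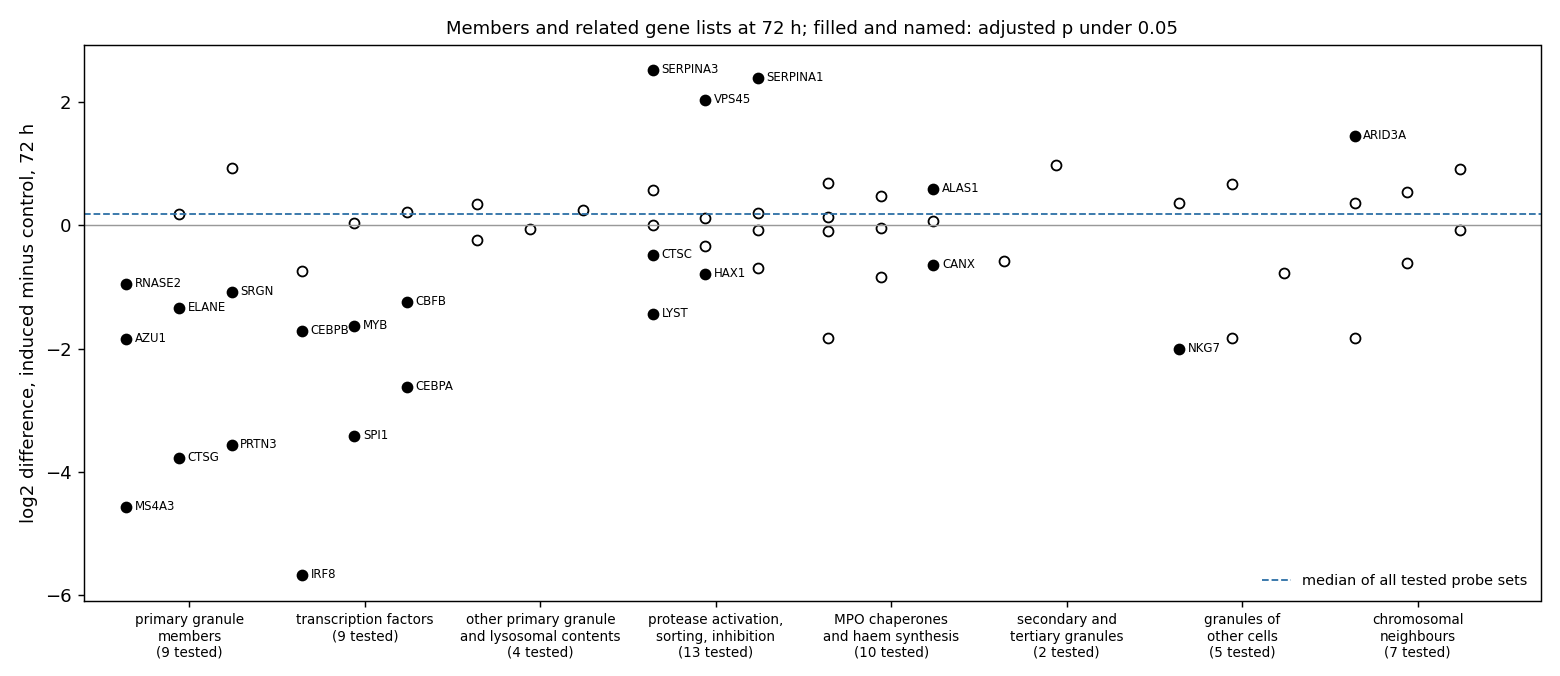
Fitted log2 difference at 72 h, induced minus control, for the 9 member genes and for related gene lists; each point is 1 gene (1 probe set), filled and named where the limma adjusted p was under 0.05, and the dashed line is the median of all tested probe sets, 0.18. Filled points are all below 0 among the members and the transcription factors, and lie on both sides of 0 among genes of protease activation, sorting and inhibition.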

How the data were processed

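Total RNA was hybridised to Affymetrix U95Av2 arrays. The deposited values are linear array intensity for each probe set, scaled by the authors to a common array mean with the scale factors listed in the labels. The sources used here do not name the software behind them. Since 22.6% to 33.9% of an array's values were negative, intensities below the 40th percentile of all values (135.6) were raised to this floor before log2 was taken, which understates fold changes of low genes. Testing required 2 or more of 16 arrays above the overall median (292.7). Without 67 control probe sets, 7824 remained.

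Group means were estimated in 1 limma model (version 3.58.1, R 4.3.3; lmFit and eBayes with trend) over the 16 arrays, with 8 residual degrees of freedom and two-sided tests. P-values were adjusted by Benjamini-Hochberg over these 7824 and called under 0.05. Where arrays of the lower group lay at the floor, the fold is written as "at least". The small number of arrays, 2 in each group, limits the precision. For CTSG, counts of members use the probe set with the higher mean. The model was tested on simulated data.

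Symbols came from the platform annotation, which can be old: 10961 probe sets had 1 symbol, 546 several and 1119 none. Promoter sequences are from RefSeq (GRCh38.p14); the files name no genome build. The members, gene lists and tests were chosen with earlier results of these data known. Other genes were named as members of these lists, or as the 6 probe sets with the highest correlation with the members' median profile. Alternatives changed the floor, scale, filter, normalization, variance trend, replicate block, control group and each array in turn. Replicate numbers were not taken as pairs: within a time, deviations of same-numbered arrays correlated at 0.12 (24 h), 0.01 (48 h) and -0.12 (72 h). Induced 12 h with control 0 h gave 0.04, and control 0 h gave 0.12, 0.05 and 0.13 with control 24, 48 and 72 h; the highest value of any 2 groups was 0.25 (induced 12 h with control 24 h).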

Additional observations from a re-analysis of the deposited data

Results flagged for a closer look

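For 5 members the difference between induced and control cells changed over 24, 48 and 72 h by an F test of the 3 differences (limma adjusted p over all probe sets). The adjusted p was 0.000121 for CTSG, 0.000121 for MS4A3, 0.000452 for PRTN3, 0.00106 for AZU1 and 0.0355 for ELANE. The fitted log2 differences at 24, 48 and 72 h were -0.08, -2.52 and -3.77 for CTSG, -0.18, -3.26 and -4.57 (limited by the floor) for MS4A3, 0.64, -1.64 and -3.56 for PRTN3, -0.07, -0.78 and -1.85 for AZU1 and 0.14, -0.74 and -1.34 for ELANE. In all 5 the fitted difference was lower at each later time, although no member's step between 48 and 72 h passed the test on its own. At 24 h only replicate 1 of the induced arrays showed RUNX1T1 signal. A link of these changes to the transgene level was not tested.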

How the results depend on the processing

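At 72 h, 7 members were lower under all 14 alternatives run, leave-one-out included, and in the average effect 7 were lower under all but 1, and no called difference turned its sign. Some uncalled ones did, among them MPO and LYZ: MPO in the average effect was -0.25 on the asinh scale and -0.11 without induced 72 h replicate 2, against 0.22, and at 48 h it was -1.45 on the asinh scale and -0.06 after median centring, against 0.10, while LYZ at 72 h was -0.10 without control replicate 2, against 0.18. With control 0 h as the reference for the average effect, 6 members were lower and 1 was higher: LYZ was then called (log2 1.54, limma adjusted p = 0.00449) and RNASE2 was not (log2 -0.46, limma adjusted p = 0.0510), while the calls over all probe sets became 697 lower and 669 higher, against 1048 and 1451. At 48 h, leaving out each array in turn gave 3 to 6 members lower, with 3 when control replicate 2 was absent, and ELANE was called under 5 alternatives, for example quantile normalization (limma adjusted p = 0.0202). The LYZ difference between induced 12 h and control 0 h was lost, leaving 0 members called, with the floor at the median (limma adjusted p = 0.0572), a floor of 50 (0.0538), the asinh scale (0.0566), no filter (0.161), median centring (0.0507) and no variance trend (0.0967), and leaving out each array gave 0 to 1 members. SRGN was called lower in that comparison without induced 12 h replicate 1 (log2 -0.99, limma adjusted p = 0.0243). For uninduced 24 h against 0 h, 1 member (LYZ) was called with the filter of 4 arrays (limma adjusted p = 0.0496), quantile normalization (0.0468) and the replicate block (0.0360), and leave-one-out gave 0 to 1. Calls over all probe sets for induced 12 h against 0 h, 257, became 169 without the filter, 154 without the trend and 80 to 150 leaving out an array, and those of the F test, 854, became 463 without induced 24 h replicate 2 and 533 without replicate 1. At 24 h the 0 calls over all probe sets became at most 4, and those of the controls over time stayed at or under 85. At 48 h the 679 lower calls became 405 to 481 leaving out an array.

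With the replicate number as a block, 6 members were lower at 48 h, since ELANE was then called (limma adjusted p = 0.0282), and 7 at 72 h. Swapping the numbers of the induced 72 h arrays, a crossed replicate block chosen after seeing the data, gave 7 members and 1115 probe sets lower, against 1090. The 2 arrays per group, the floor and the probe sets near background (MPO, and MS4A3 at 72 h) limit what could be measured. The cause of these shifts was not tested.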
